A study of Mus musculus with 2 samples.

Results

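The type I interferon-stimulated genes described here were taken from a list of 31 genes whose transcription is known to follow type I interferon. Of these, 30 were measured among 32285 genes in both libraries, and Mx1 was not analysed here. The list was combined with cell types defined by marker genes, in barcodes that passed fixed limits on counts, genes and mitochondrial share. The question was which of these genes, and which cell types, carried the difference between the 2 libraries of the study.

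Type I interferons bind a receptor made of IFNAR1 and IFNAR2, whose JAK1 and TYK2 kinases activate transcription factors of the STAT family. The complex ISGF3, which contains IRF9, then binds interferon-stimulated response elements (ISREs) in promoters. The induced genes encode sensors of viral nucleic acid, parts of the signalling chain itself, feedback regulators and antiviral effectors. In kidney, such genes can be expressed by endothelium, leukocytes and injured tubule.

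The study asked how the loss of an endothelial copy of Phd3 (Egln3), which encodes an oxygen-dependent prolyl hydroxylase, bears on inflammation and repair of a kidney after ischaemia. Injured mouse kidneys were dissociated into single cells and profiled by droplet 3′-end RNA sequencing, in 1 control and 1 haplodeficient library. In both groups the artery of 1 kidney had been clamped and released, 4 injections of tamoxifen followed, and tissue was taken at day 14. Control mice had the genotype Cre-, and haplodeficient mice were Cdh5-CreERT2; Phd3f/+, that is, 1 floxed allele and a tamoxifen-inducible Cre driven by the promoter of the endothelial cadherin gene Cdh5. Whether Cre- mice carried the floxed allele, and how many animals went into a library, were not stated. Both libraries belonged to batch 1. A single library stood for each group, so the groups could not be tested against each other. The 95% intervals in parentheses cover counting error and no difference between animals or preparations. Those of UMI counts also leave out differences between the cells that were summed.

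RefSeq promoters (250 bases before to 50 bases after a start, GRCm38.p6) were found for 23 of the 31 listed genes. The ISRE letters, GAAA and GAAA with 2 bases of any kind between them, searched on both strands with overlapping matches kept, occurred in 14 of the 23 (60.9%), against 1079 of 27025 genes (3.99%). The letters TTCNNNGAA, known as the gamma-activated site, occurred in 6 members (26.1%) and in 9.55% of all genes, and 4 members had both. In 10 of the 14 an ISRE match lay before the start, and in the other 4 only after it. The sequences of Bst2, Isg15 and Rsad2 show these letters in members on which the results below turn. Each is the 150 bases that end at the start, written along the gene's own strand, with capitals for bases in an ISRE match.
Bst2: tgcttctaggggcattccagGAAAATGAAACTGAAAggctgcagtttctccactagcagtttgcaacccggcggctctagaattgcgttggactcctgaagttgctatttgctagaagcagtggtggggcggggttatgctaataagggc
Isg15: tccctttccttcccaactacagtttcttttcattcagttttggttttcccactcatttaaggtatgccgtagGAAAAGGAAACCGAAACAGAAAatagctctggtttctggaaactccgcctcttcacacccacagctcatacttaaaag
Rsad2: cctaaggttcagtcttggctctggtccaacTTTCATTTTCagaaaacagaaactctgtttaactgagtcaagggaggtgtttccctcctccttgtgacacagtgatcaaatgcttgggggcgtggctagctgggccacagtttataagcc
The Bst2 stretch, chr8:71537473-71537622 on the minus strand, holds 2 overlapping matches, which end 120 and 114 bases before the start. The Isg15 stretch, chr4:156200819-156200968 on the minus strand, holds 3 overlapping matches that end 68, 62 and 56 bases before it. The Rsad2 stretch, chr12:26456453-26456602 on the minus strand, has 1 match on the opposite strand, read as TTTCATTTTC and ending 110 bases before the start. Ifitm3 has 2 matches after its start, GAAAAGGAAA and GAAACCGAAA. A match describes letters in this window and was not read as a binding site.

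After filtering, 8737 control cells (median 8762 UMIs) and 9222 haplodeficient cells (median 5471.5 UMIs) remained. The median mitochondrial share was 10.2% and 2.69%. Cells were grouped into clusters and named from markers, and 15 classes had at least 50 cells in each library. The markers of endothelium, 10 of 10, were at least 2-fold higher in the endothelium-like class than in other cells of each library. In that class Egln3, the targeted gene, had 58 control and 110 haplodeficient UMIs, or 24.4 CPM (18.5 to 31.5) against 21.1 CPM (17.3 to 25.4), with a ratio of 0.867 (0.625 to 1.21). That interval included 1. The 3′ end of a recombined allele may still be counted, so the gene gave no check of the labels. CPM here means UMIs per 1000000 UMIs of the same class and library.

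Over all cells the 30 genes together were higher in the haplodeficient library, and the difference had a part from which cells were present and a part from levels inside cell types. The summed level was 964 CPM (959 to 970.4) for control and 2511 CPM (2501 to 2521) for haplodeficient cells, a ratio of 2.60 (2.58 to 2.62). Of the difference of 1546 CPM, 694 CPM (44.9%) came from the makeup of the libraries and 853 CPM (55.1%) from levels within classes. With every cluster taken as a class, makeup was the larger part, at 787 CPM against 759 CPM within. The mean over the 15 classes with equal weight was 1774 and 2985 CPM, a ratio of 1.68. Equal weight takes out the makeup by class, but not the makeup by cluster inside a class. Free RNA, read in barcodes of 1 to 100 UMIs, held the members at 634 and 2413 CPM, a ratio of 3.81 (3.67 to 3.94).

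Each class's term in the makeup part was its change in share of UMIs times its own mean level. The largest terms were those of endothelium-like cells (257 CPM), which were 4.13% of control and 8.58% of haplodeficient cells, and macrophage-like cells (172 CPM). Proximal tubule-like cells, the class with the lowest summed level in both libraries, were 35.3% and 3.64% of cells, and their term was -121 CPM. A class that shrinks has a negative term, although losing a class with a low level raises the summed level over all cells. The terms therefore do not rank what each change in share did to the overall level. The within-class part was spread over many classes. Nephron classes together gave 406 CPM of it, or 26.3% of the whole difference, leukocyte classes 131.7 CPM and stroma and vessels 119 CPM, while 4 unnamed clusters gave 192 CPM. Among single classes it was largest in descending thin limb-like cells (103 CPM), endothelium-like cells (102 CPM) and thick ascending limb-like cells (80.4 CPM).

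**Figure D1:**
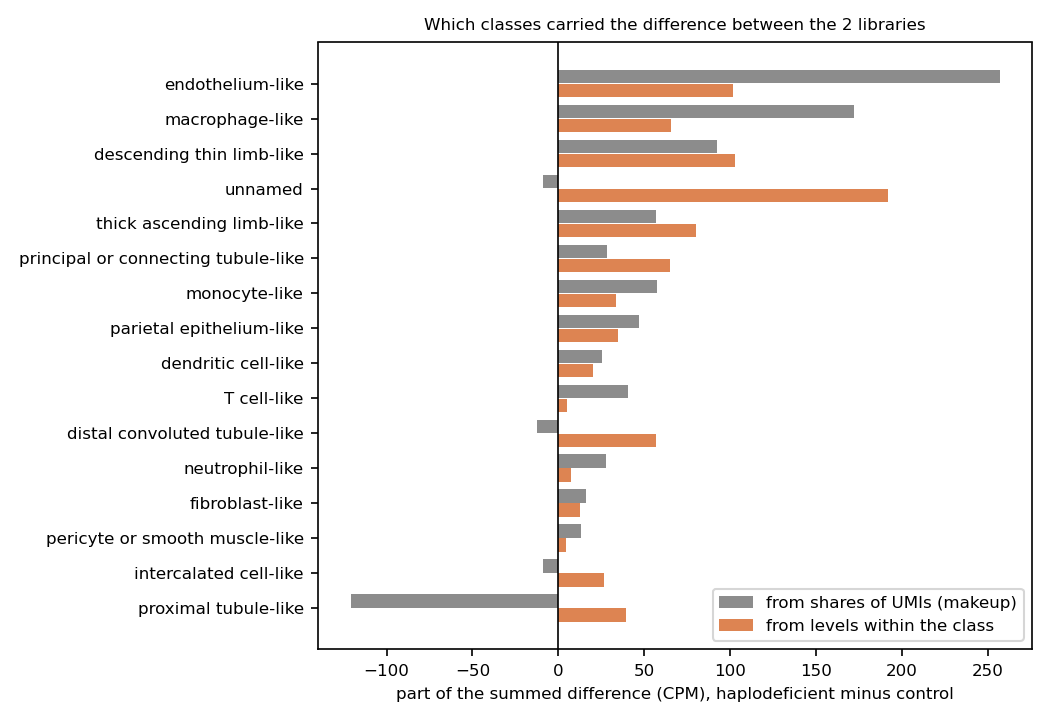
Each class's part of the summed difference of 1546 CPM, haplodeficient minus control, with grey bars for the part from shares of UMIs and orange bars for the part from levels within the class. The grey bars are longest for endothelium-like (257 CPM) and macrophage-like cells (172 CPM) and negative for proximal tubule-like cells (-121 CPM), and the orange bars reach 192 CPM for the unnamed clusters. A grey bar is a change in share times the class's own level, so any class that shrinks has a negative bar.

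A few genes carried most of the summed difference. Ifitm3 (chr7:141009586-141010770 in GENCODE M21, GRCm38), which blocks viral fusion in endosomes, gave 34.0% of it, and Bst2 (chr8:71534255-71537456), the membrane tether tetherin, gave 11.9%. Ifi27 (chr12:103434211-103440239), a small mitochondrial and nuclear-membrane protein gene, gave 9.62%, and Isg15 (chr4:156199424-156200818), a ubiquitin-like modifier, 7.10%. These 4 came to 62.6%, and none of the other 26 gave more than the 3.04% of Irf7. Without Ifitm3, Ifi27 and Bst2 the summed ratio was 2.32, so the remaining genes were also higher together.

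Every one of the 30 genes had an interval above 1 over all cells, from a ratio of 1.38 (1.31 to 1.44) for Stat2 to 4.37 (3.47 to 5.55) for Oas3. The split between makeup and levels differed from gene to gene. For Ifi27, 89.8% of its own difference came from levels within classes, against 47.5% for Ifitm3 and 62.95% for Bst2. Trim30a, an interferon-induced TRIM protein gene, was at 18.8 and 38.3 CPM over all cells, a ratio of 2.04 (1.93 to 2.15). Its within-class part was nonetheless below 0, at -6.68% of that difference, and its mean over the 15 equally weighted classes was 57.2 and 56.7 CPM. Oas3 and Ifi207 also had most of their difference from makeup, with 27.2% and 25.2% within classes.

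**Figure D2:**
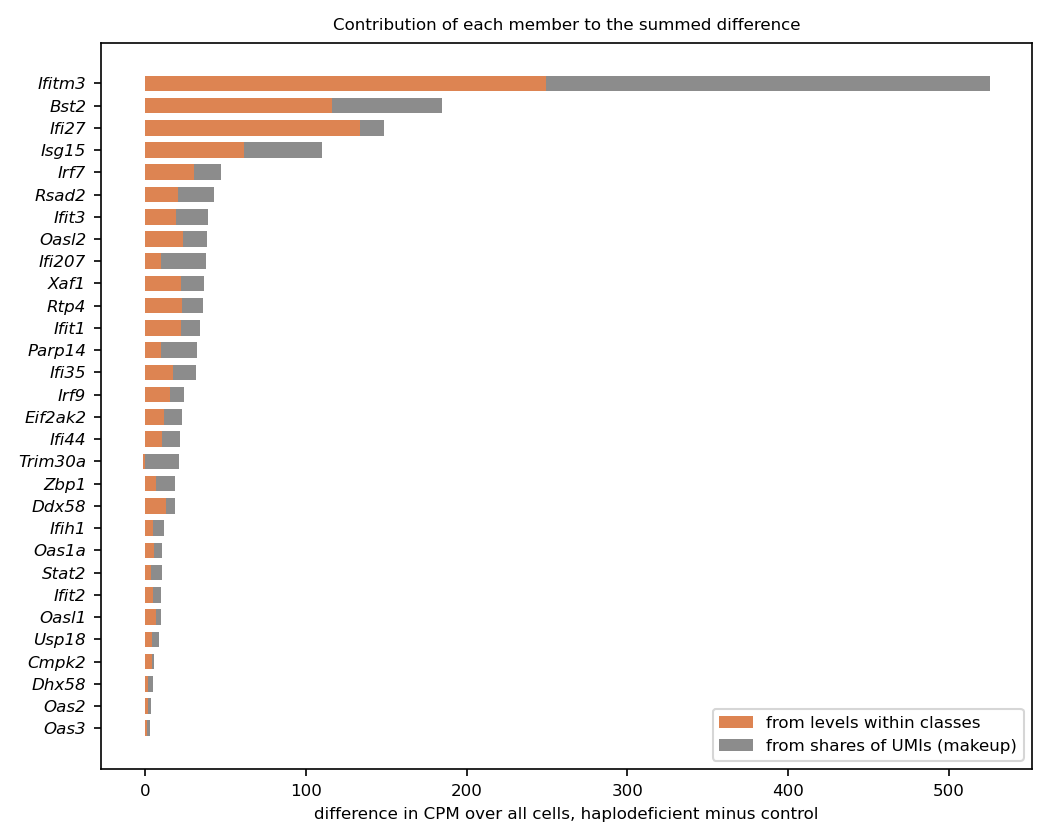
The difference in CPM over all cells for each of the 30 genes, haplodeficient minus control, split into levels within classes (orange) and shares of UMIs (grey). Ifitm3 is the longest bar, with 34.0% of the summed difference, and for Ifi27 nearly the whole bar is orange (89.8%).

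Inside each of the 15 classes the summed level was higher in haplodeficient cells, and each interval lay above 1. The ratio was highest in intercalated cell-like cells, at 1151 and 3123 CPM with a ratio of 2.71 (2.56 to 2.87), and in monocyte-like cells, at 1790.4 and 4858 CPM with a ratio of 2.71 (2.46 to 2.996). It was lowest in T cell-like cells, at 1259 and 1519.7 CPM with a ratio of 1.21 (1.12 to 1.31). Endothelium-like cells had the highest level in both libraries, 6382 and 8998 CPM, but a ratio of only 1.41 (1.38 to 1.44). Proximal tubule-like cells were at 281 and 476 CPM, a ratio of 1.69 (1.61 to 1.77). Naming each cell from its own markers lowered the intercalated ratio to 1.79, and clustering each library on its own raised the proximal tubule ratio to 3.33.

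**Figure D3:**
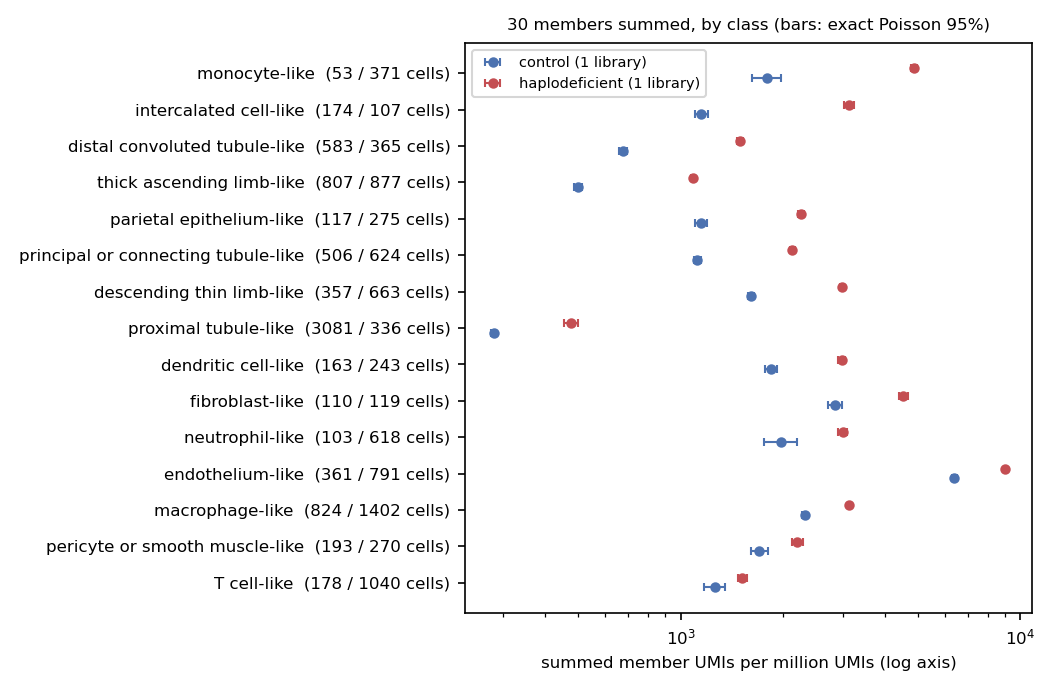
Summed UMIs of the 30 genes per 1000000 UMIs in each class, on a log axis, with 1 point per library and exact Poisson 95% bars; cell numbers stand beside the class names. The haplodeficient point lies to the right of the control point in all 15 classes, from 281 and 476 CPM in proximal tubule-like cells to 6382 and 8998 CPM in endothelium-like cells.

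Single genes were then read class by class. A pair of a gene and a class entered if its level averaged 50 CPM or more, on 30 UMIs or more over both libraries, and met the size rule with a log2 ratio (5 CPM added) of at least 1 in either direction and Poisson intervals that did not overlap. Of 450 pairs, 133 entered; 42 met the rule with the haplodeficient library higher and 0 with it lower. Among all genes of these classes 0.876% of pairs met the rule higher and 1.38% lower. A pair that entered only through its higher library had to differ, so these counts describe the pairs that entered, not all members. Of the 42, 27 lay in 6 tubule classes (of 48 that entered), 11 in leukocyte classes (of 45), 3 in parietal epithelium-like cells (of 4) and 1 in stroma and vessels (of 36).

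Without any minimum level, 236 of the 450 pairs had a ratio whose interval lay above 1 and 6 had one below 1. The 6 were Ifit1 and Ifit3 in proximal tubule-like, Stat2 in thick ascending limb-like, Ddx58 in parietal epithelium-like, Oasl2 in T cell-like and Ifi27 in fibroblast-like cells. Bst2 met the size rule in 9 classes, Ifitm3 in 6, Ifi27 and Isg15 in 5 each, Irf7 and Ifit1 in 3 each, and Parp14 and Ifi35 in 2 each. Zbp1, Ifit3, Oasl2, Trim30a, Rtp4, Xaf1 and Ifi207 met it in 1 class each. Another 8 genes entered in at least 1 class without meeting it (Ifih1, Ddx58, Stat2, Irf9, Ifit2, Rsad2, Eif2ak2 and Ifi44). The other 7 were below the minimum in every class (Dhx58, Usp18, Oas1a, Oas2, Oas3, Oasl1 and Cmpk2).

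**Figure D4:**
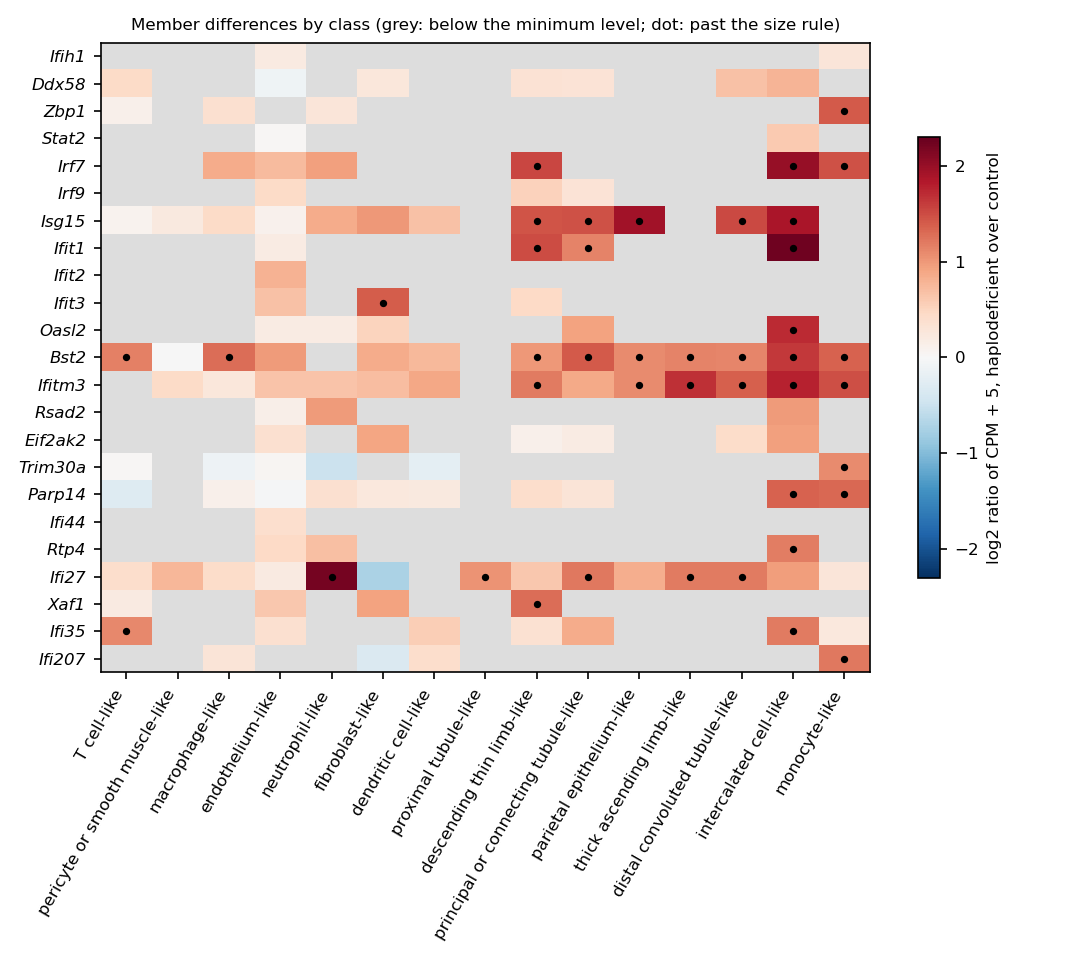
Log2 ratio of CPM plus 5, haplodeficient over control, for the 23 genes that entered in at least 1 class (rows) in 15 classes (columns, ordered by their summed ratio); grey cells are below the minimum level and dots mark the size rule. Ifi27 (14 classes) and Bst2 and Ifitm3 (13 each) form the fullest rows, and the darkest column is that of intercalated cell-like cells, where Ifit1 reaches 2.24.

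Of the sensors, Zbp1 alone met the size rule, in 1 class. Ifih1, which encodes MDA5, a sensor of long double-stranded RNA, was at 82.3 CPM (71.2 to 94.7) in control and 95.2 CPM (86.98 to 104) in haplodeficient cells among endothelium-like cells, intervals that overlapped. Ddx58, which encodes RIG-I, a sensor of RNA ends, was at 78.9 and 73.9 CPM there, also overlapping, and at 52.9 and 86.8 CPM in distal convoluted tubule-like cells, where the ratio was 1.64 (1.44 to 1.87). Zbp1, a sensor of Z-form nucleic acids, was at 49.97 CPM (25.8 to 87.3) in control and 142 CPM (125 to 160.1) in haplodeficient cells among monocyte-like cells. Those intervals did not overlap, on 12 control UMIs. In T cell-like cells Zbp1 was at 90.6 and 98.97 CPM, with a ratio of 1.09 (0.811 to 1.499). Dhx58, which encodes LGP2, was at 2.82 and 7.35 CPM over all cells.

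Among the signalling genes, Irf7 met the size rule in 3 classes, and Stat2 and Irf9 in none. Irf7, which amplifies the transcription of interferon genes, was at 33.5 CPM (25.3 to 43.5) in control and 149 CPM (127 to 174) in haplodeficient cells among intercalated cell-like cells, and at 42.5 CPM (37.4 to 48.1) in control and 133 CPM (126 to 141) in haplodeficient cells among descending thin limb-like cells. Neither pair of intervals overlapped, and the ratios were 4.46 (3.27 to 6.15) and 3.13 (2.73 to 3.61). In monocyte-like cells Irf7 also met the size rule, with 7 control UMIs, a level of 29.1 and 89.4 CPM and a ratio of 3.07 (1.46 to 7.75). Stat2, by contrast, was at 112 and 115 CPM in endothelium-like cells, a ratio of 1.02 (0.884 to 1.19) whose interval included 1. Irf9, its DNA-binding partner, was at 75.6 and 105 CPM there, a ratio of 1.38 (1.17 to 1.65). Usp18, a protease that removes Isg15 from proteins and dampens the receptor, stayed below the minimum level in each class and was at 5.54 and 13.9 CPM over all cells, a ratio of 2.503 (2.27 to 2.76). Irf7 overlaps Phrf1 and Irf9 overlaps Rnf31 in the annotation, and whether strand was used in counting was not stated.

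Isg15 had a ratio above 1 in each of the 12 classes in which it entered, and met the size rule in 5 of them, each a nephron class. In parietal epithelium-like cells it was at 37.5 CPM (29.2 to 47.5) in control and 158 CPM (146 to 170.3) in haplodeficient cells, a ratio of 4.21 (3.28 to 5.47). That class included a cluster of dividing cells, with 38 control and 34 haplodeficient cells of the class's 117 and 275. In descending thin limb-like cells Isg15 was at 98.5 CPM (90.6 to 107) in control and 278 CPM (268 to 289.6) in haplodeficient cells, a ratio of 2.83 (2.58 to 3.0996). None of these intervals overlapped between libraries. In endothelium-like cells, the class with its highest control level, it was at 485 and 517 CPM and the ratio of 1.07 (0.996 to 1.14) included 1. In T cell-like cells the ratio of 1.06 (0.837 to 1.35) included 1 as well.

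Among the IFIT genes, whose proteins bind the 5′ ends of foreign RNA, Ifit1 was higher in thin limb and collecting duct classes and, at a low level, lower in proximal tubule. Ifit1 was at 32.3 CPM (24.3 to 42.2) in control and 172 CPM (148 to 199) in haplodeficient cells among intercalated cell-like cells, on 54 and 183 UMIs. Its log2 ratio there, 2.24, was the largest of the 133 pairs that entered. It was at 34.98 and 108 CPM in descending thin limb-like cells and 33.3 and 79.3 CPM in principal or connecting tubule-like cells. In proximal tubule-like cells haplodeficient cells had less Ifit1, with 8.52 and 4.202 CPM on 330 and 17 UMIs and a ratio of 0.493 (0.284 to 0.802), and less Ifit3, with 9.11 and 4.202 CPM. Ifit3 was at 29.5 CPM (17.2 to 47.3) in control and 85.6 CPM (67.7 to 107) in haplodeficient cells among fibroblast-like cells, a ratio of 2.897 (1.699 to 5.22). Ifit2 entered only in endothelium-like cells, at 49.97 and 91.1 CPM, a ratio of 1.82 (1.49 to 2.25). Reads of Ifit3 may be shared with its near-identical neighbour Ifit3b.

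The genes of the OAS family, named for enzymes that make the oligoadenylates that activate RNase L, were mostly low. Oas1a, Oas2, Oas3 and Oasl1 were below the minimum level in each class, and over all cells their ratios were 3.12 (2.83 to 3.45), 2.67 (2.29 to 3.12), 4.37 (3.47 to 5.55) and 2.53 (2.31 to 2.78). Oasl2 was at 44.3 CPM (34.8 to 55.6) in control and 158 CPM (135 to 183) in haplodeficient cells among intercalated cell-like cells, which did not overlap. In endothelium-like cells it was at 146 and 166 CPM, intervals that overlapped. Oas1a reads may be shared with its paralog Oas1g.

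The membrane restriction factors met the size rule in more classes than any other member, Bst2 in 9 and Ifitm3 in 6. Bst2 was at 221 CPM (209 to 234) in control and 549.6 CPM (535 to 564) in haplodeficient cells among macrophage-like cells, a ratio of 2.48 (2.33 to 2.65), and at 428 CPM (402 to 455) in control and 849 CPM (824 to 874) in haplodeficient cells among endothelium-like cells, where its log2 ratio of 0.98 lay just under the size rule. In intercalated cell-like cells it was at 102 and 324 CPM, and in T cell-like cells at 69.3 and 160.3 CPM. The exceptions were neutrophil-like cells, with a ratio of 1.29 (0.592 to 3.33), and pericyte- or smooth muscle-like cells, at 264 CPM (226 to 306) in control and 262 CPM (234 to 293) in haplodeficient cells, which overlapped. Ifitm3 was at 1124 CPM (994 to 1267) in control and 3159 CPM (3078 to 3242) in haplodeficient cells among monocyte-like cells, a ratio of 2.81 (2.49 to 3.19), and at 2562 CPM (2498 to 2627) in control and 4024 CPM (3969.5 to 4079) in haplodeficient cells among endothelium-like cells, a ratio of 1.57 (1.53 to 1.62). Each of these Ifitm3 pairs was apart. In thick ascending limb-like cells Ifitm3 was at 28.1 and 101 CPM, of which an expected 22.4% and 33.97% was free RNA. Its ratio in macrophage-like cells was smaller, 1.201 (1.16 to 1.24).

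The enzymes and other effectors entered in different numbers of classes, Parp14 in 10, Eif2ak2 and Trim30a in 6 each and Rsad2 in 3. Rsad2, which encodes viperin, a radical-SAM enzyme that makes a chain-terminating nucleotide, was at 522 CPM (494 to 552) in control and 571 CPM (551 to 592) in haplodeficient cells among endothelium-like cells, a ratio of 1.09 (1.02 to 1.17). Its neighbour Cmpk2, a nucleotide kinase gene, was at 23.1 and 40.7 CPM there, below the minimum level. Eif2ak2, which encodes the kinase PKR, was at 80.6 and 106 CPM in endothelium-like and 61.6 and 124 CPM in intercalated cell-like cells. Parp14, an ADP-ribosyltransferase gene, did not differ beyond counting error in endothelium-like cells, at 224 and 219 CPM with a ratio of 0.978 (0.882 to 1.09), and at 54.1 and 142 CPM in monocyte-like cells on 13 control UMIs. Trim30a was at 230.2 CPM (163 to 316) in control and 162 CPM (139 to 186) in haplodeficient cells among neutrophil-like cells, which overlapped, and at 104 and 96.02 CPM in macrophage-like cells, with a ratio of 0.923 (0.831 to 1.03). It met the size rule higher in monocyte-like cells alone of the 6 classes in which it entered. Reads of Trim30a may be shared with Trim30d.

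Among the remaining genes, Ifi27 had a wide tubular difference, at 152 CPM (145 to 159.99) in control and 355 CPM (346 to 365) in haplodeficient cells among thick ascending limb-like cells and at 110.2 CPM (107 to 114) in control and 232 CPM (217 to 247) in haplodeficient cells among proximal tubule-like cells, neither overlapping. In fibroblast-like cells it went the other way, at 183 CPM (149 to 221) in control and 109 CPM (88.3 to 132) in haplodeficient cells, the only pair that entered with an interval below 1. In neutrophil-like cells it had 4 and 153 UMIs, and free RNA alone would give 38.5% of its control level. Xaf1, an apoptosis-related gene, was at 31.9 and 85.3 CPM in descending thin limb-like cells, a ratio of 2.67 (2.28 to 3.15). Rtp4 was at 55.1 and 131 CPM and Ifi35 at 34.7 and 86.4 CPM in intercalated cell-like cells. Ifi207, a member of the PYHIN family of DNA-binding proteins, was at 99.9 and 239 CPM in monocyte-like cells, and its reads may be shared with Ifi203. Ifi44 entered only in endothelium-like cells, at 204 and 267 CPM, a ratio of 1.31 (1.18 to 1.45).

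Endothelium, in which the Cre of the haplodeficient group is driven, had the highest summed level and a small relative difference. Of the 30 genes, 20 had their highest level of the 15 classes in endothelium-like cells of the control library and 18 in those of the haplodeficient library. None of the 21 genes that entered there met the size rule, which 0.16% of all genes met in this direction, and the median log2 ratio of the 21 was 0.37, against -0.0022 over all genes that entered. Ifitm3 and Bst2 alone made up 71.96% of the difference of 2616 CPM. The other 28 genes together were at 3392 and 4126 CPM, a ratio of 1.22 (1.19 to 1.25). Ifitm3 and Bst2 also gave from 61.4% (macrophage-like) to 76.9% (dendritic cell-like) in monocyte-like, fibroblast-like and pericyte- or smooth muscle-like cells. They gave 34.6% in T cell-like, 37.8% in neutrophil-like and 49.96% in parietal epithelium-like cells. In the tubule classes the share ran from 14.1% (proximal tubule-like) to 32.9% (intercalated cell-like). With each endothelial cluster given the same weight in both libraries the median log2 ratio was 0.21. The markers of leukocytes (66 genes) summed to 2285 and 2266 CPM in these cells, a ratio of 0.992. That sum was led by Ebf1, Apoe and Plac8. Without these 3, the other 63 were at 326 and 455 CPM, a ratio of 1.40, and their part in the result was not tested.

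Splitting the endothelium by subtype showed 1 subtype in which some interferon-stimulated genes had an interval below 1. In subclusters named capillary, glomerular and activated from their markers, the summed ratios were 1.47, 1.48 and 1.52. In the subcluster of the descending vasa recta, the small vessels that carry blood into the medulla, the summed levels were 7683 and 8574 CPM, a ratio of 1.12 (1.08 to 1.16), over 91 and 158 cells. There 5 genes had an interval above 1 and 10 had one below 1. In each of the other subclusters, 0 genes had an interval below 1, and from 4 (an unnamed one) to 14 (capillary) had one above 1. The arterial subcluster had a ratio of 1.37, and a further one with glomerular markers, 13 and 28 cells led by genes such as Magi2 and Sfrp2, had 1.43. These subclusters were read gene by gene after their sums had been seen.

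In the descending vasa recta subcluster Rsad2, Isg15 and 8 other genes were lower, and the membrane factors Bst2 and Ifitm3 higher. Rsad2 was at 883 and 519 CPM (ratio 0.588, 0.522 to 0.663). Isg15 was at 667 and 436 CPM (ratio 0.653, 0.571 to 0.746). Ifit1, Ifit2, Oasl1, Oasl2, Trim30a, Parp14, Ifi44 and Ifi207 were also lower, with ratios from 0.261 for Ifi207, on 19 and 8 UMIs, to 0.767 for Ifi44. Bst2 was at 652 and 1009 CPM (ratio 1.55, 1.38 to 1.74). Ifitm3 was at 2914 and 4325 CPM (ratio 1.48, 1.41 to 1.57), and Zbp1, Irf7 and Xaf1 were higher as well. In the main clustering, the cluster that held most of these cells (97 and 162 cells) gave 10 genes with an interval below 1 and 4 above, with Isg15 at 662 and 426 CPM (ratio 0.644, 0.564 to 0.737).

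A few control cells weighed heavily in this comparison. Without Ifitm3 and Bst2 the other 28 genes were at 4117 and 3239.9 CPM in the descending vasa recta subcluster, a ratio of 0.787 (0.748 to 0.828). The median cell, however, was at 2839 CPM among control and 2862 CPM among haplodeficient cells. The 10% of cells with the highest share held 28.7% of these UMIs among control (9 cells) and 19.02% among haplodeficient cells (16 cells). Without those cells the levels were 3209 and 2835 CPM. A Rsad2 UMI was found in 82.4% and 76.6% of cells. UMIs of the same cell are not independent, so the counting intervals are too narrow, in this subcluster and in the other classes and subclusters. In the capillary subcluster the same 28 genes were at 4223 and 5992 CPM, with median cells at 4124 and 5244 CPM.

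The glomerular subcluster with Ehd3 among its leading genes had 29 and 77 cells and a difference led by other genes. Bst2 was at 183 and 702 CPM (ratio 3.84, 2.82 to 5.34). Ifit3 was at 70.7 and 201 CPM (ratio 2.85, 1.72 to 5.01). Isg15 did not differ beyond counting error there, at 583 and 564 CPM (ratio 0.967, 0.798 to 1.18). In the activated subcluster, which is led by genes such as Selp and Sele, Bst2 was at 634 and 1686 CPM (ratio 2.66, 2.13 to 3.36), and Isg15 at 535 and 871 CPM (ratio 1.63, 1.26 to 2.13). Bst2 had an interval above 1 in each of these subtypes, whereas that of Isg15 lay above, across or below 1.

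In the tubule the summed ratios were larger than in endothelium, and more of the pairs that entered met the size rule. Some tubule pairs reached the mean of 50 CPM only through the haplodeficient library and so had to differ. Examples are Ifitm3 in thick ascending limb-like and Ifit1 in intercalated cell-like cells. The counts past the rule therefore cannot be set against that of endothelium-like cells. Genes with an interval above 1 numbered 19 in endothelium-like cells and from 13 to 27 in the tubule classes. Intercalated cell-like cells, the acid-base cells of the collecting duct, had 9 of 14 genes past the size rule, against 1.64% of all genes there: Ifit1, Irf7, Isg15, Ifitm3, Oasl2, Bst2, Parp14, Ifi35 and Rtp4, with log2 ratios from 1.18 to 2.24. Descending thin limb-like cells had 6 of 13 (background 0.447%): Irf7, Ifit1, Isg15, Xaf1, Ifitm3 and Bst2, from 1.00 to 1.54. Distal convoluted tubule-like cells had 4 of 6 (background 0.773%), Isg15, Ifitm3, Ifi27 and Bst2, and principal or connecting tubule-like cells 4 of 11 (background 0.831%), Isg15, Bst2, Ifi27 and Ifit1. Thick ascending limb-like cells had 3 of 3 (background 0.797%), Ifitm3, Ifi27 and Bst2. In proximal tubule-like cells Ifi27 was the 1 gene that entered and met the rule (background 1.5%). Parietal epithelium-like cells had 3 of 4 (background 0.58%), Isg15, Ifitm3 and Bst2. Over all genes that entered, the median log2 ratio was 0.20 in proximal tubule-like and 0.13 in thick ascending limb-like cells. It was 0.12 in distal convoluted tubule-like, 0.044 in intercalated cell-like, -0.0058 in principal or connecting tubule-like and -0.020 in descending thin limb-like cells.

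Some of these tubule counts rested on which clusters made up a class. In principal or connecting tubule-like cells a cluster led by Sprr2f held 346 and 612 cells and had a summed ratio of 1.52 (1.47 to 1.57). The other, led by Aqp2, the water channel of principal cells, held 160 and 12 cells and had a ratio of 1.46 (1.19 to 1.78). The class ratio of 1.905 was above both, and was 1.52 with the same cluster weights. Within the Sprr2f-led cluster Isg15 and Bst2 had a ratio of 2.02 each, Ifi27 one of 1.92 and Ifit1 one of 1.77. In proximal tubule-like cells the class ratio of 1.69 was 1.46 with the same cluster weights. Parietal epithelium-like cells pooled a cluster of 79 and 241 cells, with a summed ratio of 1.61, with a cluster of dividing cells. The dividing cluster, led by genes such as Cenpf and Top2a, held 38 and 34 cells and had a ratio of 2.35 (2.17 to 2.54). The parietal class ratio of 1.97 was 1.72 with the same cluster weights. With those weights Ifit1, Bst2 and Ifi27 in principal or connecting tubule-like cells, Ifi27 in proximal tubule-like and distal convoluted tubule-like cells and Ifitm3 in parietal epithelium-like cells no longer met the size rule, and 37 pairs met it in all.

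Other values moved with the tubular difference. The 66 leukocyte marker genes summed higher in the haplodeficient library in all 6 tubule classes, with ratios from 1.502 to 2.79. The leading genes were Lcn2, Plac8 and Apoe, but Apoe, G0s2 and Plac8 in proximal tubule-like cells. Lcn2, also a known injury gene of tubule, was at 1737 and 3624 CPM in distal convoluted tubule-like cells. Without the 3 leading genes of each class, the other 63 were at 40.1 and 80.8 CPM in intercalated cell-like cells, a ratio of 2.01. That ratio was 2.34 in proximal tubule-like and 2.13 in thick ascending limb-like cells, and from 1.16 to 1.26 in the other 3 tubule classes. Among defining markers, the macrophage gene C1qa had 0 and 15 UMIs in intercalated cell-like cells (0 and 14.1 CPM), the neutrophil gene S100a8 had 2 and 5, and the T cell genes had 0 and 1 (Cd3e) and 4 and 1 (Trac). Those of B cells, NK cells and monocytes (Ms4a1, Cd79a, Ncr1 and Ly6c2) had 0 in both libraries. In thick ascending limb-like cells C1qa was at 5.93 and 20.5 CPM. The mitochondrial share moved too: the class medians were 14.95% and 4.904% in thick ascending limb-like and 9.99% and 5.96% in intercalated cell-like cells. With mitochondrial UMIs left out of the totals, the summed ratio went from 2.18 to 1.95 in thick ascending limb-like cells. It went from 2.71 to 2.55 in intercalated cell-like and from 1.69 to 1.47 in proximal tubule-like cells. The part of the leukocyte markers, and any further part of the mitochondrial share, was not tested. Free RNA made up an expected 3.46% and 1.85% of UMIs in intercalated cell-like cells, and with free RNA subtracted in every class 40 pairs met the rule.

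Among leukocytes, monocyte-like cells had the most genes past the size rule. Of their 10 genes that entered, 7 met the size rule (background 2.1%): Ifitm3, Irf7, Zbp1, Bst2, Parp14, Ifi207 and Trim30a. The control library had 53 such cells, and 6 of the 7 genes rested on 24 control UMIs or fewer, so only Ifitm3, at 270 and 5792 UMIs, was well counted in both. Macrophage-like cells, 824 and 1402 in number, had 1 of 9 (background 0.325%), Bst2. Neutrophil-like cells had 1 of 10 (background 1.9%), Ifi27, T cell-like cells 2 of 9 (background 0.801%), Bst2 and Ifi35, and dendritic cell-like cells 0 of 7 (background 0.42%).

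The macrophage class had a smaller ratio than 3 of the 4 clusters that make it up. In the cluster led by Ccl12, Ccl8 and Mrc1 the summed level was 3077 and 4837 CPM, a ratio of 1.57 (1.53 to 1.61), and 25 genes had an interval above 1. In the cluster led by Gpnmb, Fabp5 and Trem2, with 163 and 409 cells, it was 1364 and 2110.2 CPM, a ratio of 1.55, and 16 genes had one. A shallow cluster led by Aif1 and Ccl8, with 51 and 201 cells, had a ratio of 1.65 (1.36 to 2.02). In the cluster led by cell division genes such as Top2a and Mki67, with 38 and 65 cells, the levels were 1899.5 and 1932.5 CPM, and the ratio of 1.02 (0.942 to 1.10) included 1. The class as a whole had a ratio of 1.35 (1.32 to 1.38), and with the same cluster weights 1.56. Irf7 was at 61.5 and 146 CPM (ratio 2.38, 1.999 to 2.84) in the first cluster, and 7.81 and 32.9 CPM (ratio 4.21, 2.48 to 7.68) in the second. Bst2 was at 162 and 496 CPM (ratio 3.07, 2.72 to 3.46) in the second. T cell-like cells, by contrast, had a cluster led by Cd40lg and Ctla4 at 1572 and 1586 CPM, a ratio of 1.01 (0.903 to 1.13), the only 1 of the 26 clusters with at least 50 cells in each library whose interval included 1.

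In stroma, few genes met the size rule. Fibroblast-like cells had 1 of 11 genes past the size rule (background 0.736%), Ifit3, and pericyte- or smooth muscle-like cells 0 of 4 (background 0.305%). Ifitm3 was at 1696 and 2777 CPM in fibroblast-like cells, a ratio of 1.64 (1.52 to 1.76), and at 943 and 1278 CPM in pericyte- or smooth muscle-like cells, a ratio of 1.36 (1.23 to 1.49). Isg15 was at 141 CPM (112 to 175) in control and 284 CPM (251 to 321) in haplodeficient cells among fibroblast-like cells, which did not overlap. Its log2 ratio of 0.99 lay just under the rule.

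The difference was also read cell by cell, after each cell of at least 1000 UMIs was thinned to 1000 so that shares had equal depth. Shallower cells were left out, 43 and 123 of the macrophage-like and 158 and 10 of the proximal tubule-like cells. Cells with at least 5 member UMIs were 67.96% (62.7 to 72.9) of control and 86.7% (84.03 to 89.0) of haplodeficient cells in the endothelium-like class, and 3.77% (0.4603 to 12.98) of control and 43.2% (38.1 to 48.5) of haplodeficient cells in the monocyte-like class. They were 18.95% (16.3 to 21.9) of control and 34.2% (31.6 to 36.8) of haplodeficient cells among macrophage-like and 5.45% (2.52 to 10.1) of control and 21.2% (13.8 to 30.3) of haplodeficient cells among intercalated cell-like cells. In these 4 classes the intervals did not overlap. In proximal tubule-like cells, where few cells had so many, the shares were 0.274% (0.118 to 0.539) of control and 0.307% (0.00777 to 1.697) of haplodeficient cells, and in T cell-like cells 5.17% (2.39 to 9.59) of control and 6.56% (5.12 to 8.26) of haplodeficient cells, both with overlapping intervals. Unthinned, a member UMI of any number was found in 70.01% and 82.4% of proximal tubule-like cells. The 10% of endothelium-like cells with most member UMIs held 24.4% and 21.2% of the class's thinned member UMIs, against 51.8% and 40.6% in T cell-like cells.

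**Figure D5:**
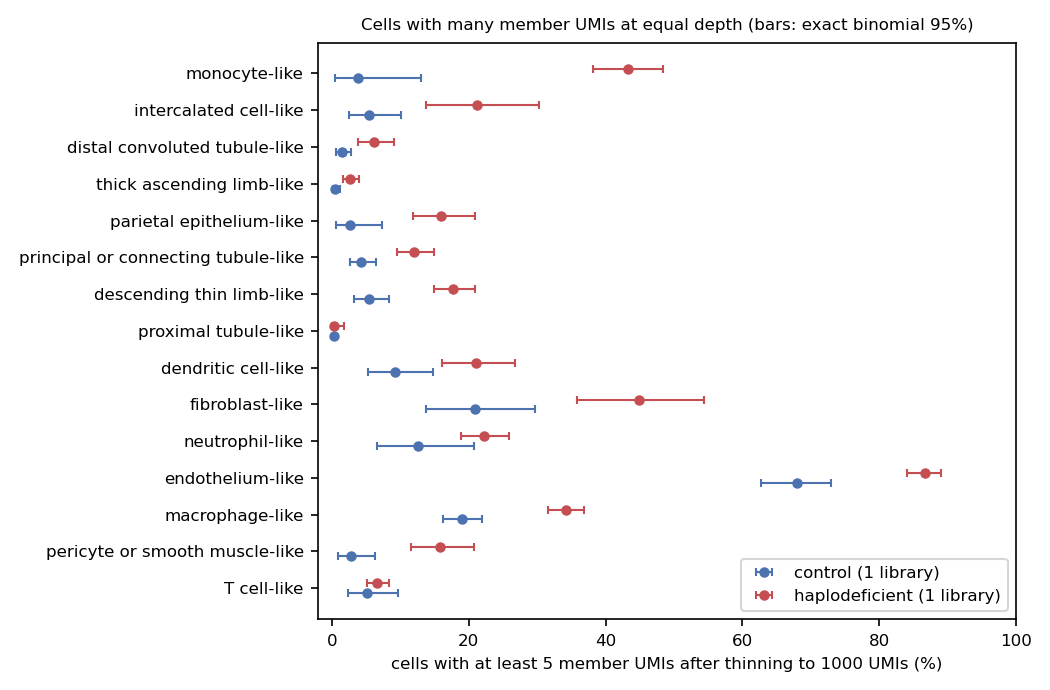
Percent of cells with at least 5 member UMIs, among cells of at least 1000 UMIs thinned to 1000, by class, with 1 point per library and exact binomial 95% bars. Endothelium-like cells stand highest, at 67.96% and 86.7%, and the widest gap is that of monocyte-like cells, at 3.77% and 43.2%.

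Other genes of the pathway were counted in the same 15 classes from lists chosen with earlier results known. The 20 type I and III interferon genes summed to 10 and 20 UMIs. Of these, Ifnb1, the beta interferon gene, had 0 control and 10 haplodeficient UMIs over all cells, 9 of them in macrophage-like cells, and its ratio had a lower bound of 2.56. Ifng, the type II interferon gene, had 65 and 1077 UMIs over all cells, a ratio of 18.9 (14.7 to 24.7). Most of the Ifng UMIs, 50 and 980, lay in T cell-like cells, which were 178 and 1040 in number. Within them Ifng was measured at 88.8 and 305 CPM, a ratio of 3.43 (2.58 to 4.66).

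Over all cells Ifnar1 had a ratio of 1.45 (1.39 to 1.51) and Ifnar2, which encodes the other chain of the receptor, one of 1.66 (1.62 to 1.71). The counts that follow stand beside 0.876% of all pairs past the size rule higher and 1.38% lower, and are too small to be told apart from those shares. Of 47 receptor pairs that entered, 1 met the size rule, Ifngr2 in fibroblast-like cells, at 29.5 and 102 CPM. Of the signal transduction genes, Irf8, a myeloid transcription factor gene, met it in monocyte-like cells (37.5 and 105 CPM). Of 22 pairs of sensors and adaptors 0 met the rule in either direction, and of 33 pairs of negative regulators 1, Socs3 in principal or connecting tubule-like cells, which was lower at 299 and 127 CPM.

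Among other target genes, more pairs were higher than lower. Of 174 pairs of 62 other interferon-stimulated genes, 12 were past the size rule higher and 3 lower, against 0.876% and 1.38% of all pairs. The higher ones included Ifi27l2a in fibroblast-like (848 and 2216 CPM), monocyte-like, dendritic cell-like and T cell-like cells, and Cxcl10, a chemokine for T cells, in intercalated cell-like (54.5 and 124 CPM) and neutrophil-like cells. The lower ones were Ifitm1 in pericyte- or smooth muscle-like (152 and 19.1 CPM) and fibroblast-like cells (998 and 405 CPM), and Trim30d in neutrophil-like cells (218 and 105 CPM). Of 62 pairs of genes known to lean towards type II interferon, 8 met the rule higher and 0 lower, beside the same shares of all pairs. Psmb8, an immunoproteasome subunit gene, did so in every tubule class but the proximal and thin limb ones, at 43.1 and 156 CPM in intercalated cell-like and 39.6 and 103 CPM in thick ascending limb-like cells. Cxcl9, a chemokine gene induced by interferon gamma, was at 20.99 and 84.5 CPM in macrophage-like cells.

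A list of 15 genes known to respond to tissue dissociation was read beside these. Of 204 pairs, 10 were past the size rule higher and 0 lower (0.876% and 1.38% of all pairs), and the list's median log2 ratio lay above 0 in 7 of 15 classes. It was 1.10 in proximal tubule-like cells, with Atf3 at 99.3 and 313 CPM, 0.62 in T cell-like cells, 0.42 in thick ascending limb-like, and 0.17 in both distal convoluted tubule-like and monocyte-like cells. It was -0.17 in descending thin limb-like, -0.09 in intercalated cell-like and -0.08 in principal or connecting tubule-like cells. Its part in the result was not tested.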

How the data were processed

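Single-cell RNA was measured in 2 libraries, 1 per group. The deposited values were raw UMI counts per gene and barcode, with no filter on cells, which Cell Ranger, version 4 per the file headers, made for the authors. The build was mm10, per the submitters' processing notes. Gene IDs matched GENCODE M21 (GRCm38) for 32158 of 32285 (99.6%), which gave the gene coordinates. The members, the lists and the classes' markers were chosen with earlier results of these data known.

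Limits of 500 UMIs and 200 genes as minimums, and 50% mitochondrial UMIs as the maximum, were set on barcodes. Likely doublets were ranked by Scrublet score (scanpy 1.11.5), and 0.8% for each 1000 cells were removed (715 control, 804 haplodeficient), which left 106926054 and 93610831 UMIs. In all, 24 and 27 retained cells had a barcode that is also a cell in the other library. Both libraries were clustered together on 2000 variable genes, without the members and the other pathway genes, with 30 principal components, 15 neighbours and Leiden resolution 1 (leidenalg 0.10.2), which gave 43 clusters. A name needed at least 3 markers of a class, each in at least 10% of cells and 2-fold higher than elsewhere. The 4 unnamed clusters held 12.3% and 9.69% of cells. Names are rebuilt and not the authors'. Endothelium-like cells were clustered again at resolution 0.5.

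UMIs were summed per class and library and given as CPM. Levels have exact Poisson 95% intervals, ratios exact conditional binomial ones and shares exact Clopper-Pearson ones, all for counting error only. The split into makeup and levels used the mean of both libraries as weights, with the unnamed clusters as 1 class. Free RNA was read from barcodes of 1 to 100 UMIs, and its share in a class from markers of other classes. In a class, genes were named as the 5 with most UMIs, the 5 highest and 2 lowest log2 ratios and any past the size rule; other members are named in the order of their roles. The ratio and interval steps were tested on simulated data. Alternatives to the scaling, minimum level, cell filters, doublets, clustering, weights, depth and free RNA are described in the closing section. Some results of the signal transduction list are not reported here.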

Additional observations from a re-analysis of the deposited data

Results flagged for a closer look

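Barcodes of 1 to 100 UMIs, which are too shallow to be cells and enter no comparison of cells, also held the 30 genes at a higher level in the haplodeficient library. They had 4034 member UMIs in the control, or 634 CPM (615 to 654), and 13271 in the haplodeficient library, or 2413 CPM (2372 to 2455), a ratio of 3.81. This signal lies outside the main measurement and was larger than the ratio of 2.60 in retained cells. Its source was not tested.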

How the results depend on the processing

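No paired analysis was possible because each group had 1 library, and for the same reason no library could be left out. In all, 17 alternatives were planned and 2 settings were added after seeing the data. In each setting where they were read, the summed ratio stayed above 1. The within-class part and the endothelial median log2 ratio stayed above 0. For named pairs not past the size rule, a change of sign was not counted. The summed ratio of 2.60 was 2.34 with totals without mitochondrial UMIs, 2.52 with a UMI minimum set per library, 2.26 with a mitochondrial limit of 25%, 2.58 with doublets kept and 2.56 after thinning to 1000 UMIs; without Ifitm3, Ifi27 and Bst2, an added setting, it was 2.32. The within-class part of 853 CPM was 793 with a UMI minimum set per library, 872 with the 25% mitochondrial limit, 979 with doublets kept, 1001 with each library clustered on its own, 826 with classes named cell by cell, 889.7 at Leiden resolution 2, 877 with members allowed among the variable genes and 968 after thinning. In the added settings it was 759 with every cluster a class, where the makeup part of 787 CPM was the larger, and 353 without Ifitm3, Ifi27 and Bst2. The 42 pairs past the size rule became 81 with a minimum mean of 10 CPM, 86 with no filter on low values and 25 after thinning. The median lay above 0 in 11 of 11 classes, and in 7 of 7 with a UMI minimum set per library. The endothelial median log2 ratio of 0.37 was 0.32 with a pseudocount of 20 CPM, 0.31 with totals without mitochondrial UMIs, 0.28 with a UMI minimum set per library and with classes named cell by cell, 0.41 with each library clustered on its own, 0.21 with the same cluster weights and 0.31 with free RNA subtracted. The cause of these shifts was not tested. Of 1588 alternative values for 110 named pairs, 1418 stayed within the counting interval of the main value and 170 moved out of it. The 607 for the 42 pairs past the rule all lay above 0, the lowest at 0.42. Depth limits the monocyte-like and neutrophil-like classes, with 430 and 325 member UMIs in the control library.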

Other observations

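The 4 unnamed clusters, which entered no comparison of classes, were also compared. A cluster led by Havcr1, an injury gene of the proximal tubule, had the members at 932 and 1128 CPM, a ratio of 1.21. In it Ifit1, Ifit2, Ifit3 and Stat2 had intervals below 1 and 7 genes had one above 1. Ifit1 there was at 13.05 and 7.15 CPM on 102 and 31 UMIs, the same direction as in proximal tubule-like cells. A cluster with genes of both intercalated and principal cells was at 1070.2 and 1939 CPM, a ratio of 1.81, with 24 genes above 1 and 2 below, Trim30a at 34.2 and 16.97 CPM and Oas3 on 10 and 2 UMIs. A Psca-led cluster was at 1062 and 1629 CPM. Cells with endothelial and pericyte genes together were at 5741 and 7522 CPM, a ratio of 1.31.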
